A study of Mus musculus with 9 samples.

Results

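The ion channel subunit genes described here are the pore-forming and auxiliary subunits of potassium, sodium, calcium, chloride, transient receptor potential (TRP), glutamate-gated and GABA-gated channels. They were chosen by gene symbol (the Kcn, Hcn, Scn, Cacn, Clcn, Trpc, Trpm, Trpv, Gria, Grik, Grin and Gabr families, without Kcnj10 and Hcn2), and 64 of the 11315 genes in the expression tables matched. Of these, 61 encode channel subunits, and 3 carry a matching symbol but encode no channel subunit (Scnm1, Kcnrg and Trpc4ap). The study sorted fluorescent cells from the brains of C57BL/6 mice at postnatal day 60 and sequenced their RNA, with 3 libraries for each of 3 reporters. NDRG1-eGFP cells are labelled as myelinating oligodendrocytes, PLP-GFP cells (PLP::GFP in the labels) as pre-myelinating oligodendrocytes, and PDGFRa-GFP cells (PDGFRa::GFP in the labels) as oligodendrocyte progenitors. The title of the series asks about a myelinating population of the adult mouse central nervous system that expresses NDRG1. Neither the origin of the replicates (separate animals or not) nor the build of the reporters is stated in the labels, so p-values here measure the spread between these libraries, which may be technical.

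Voltage-gated channels open with a change in membrane potential, whereas glutamate and GABA receptors open when a transmitter binds. Progenitors of the oligodendrocyte lineage are known to carry voltage-gated sodium and potassium channels and AMPA-type glutamate receptors and to receive synapses from neurons. Mature oligodendrocytes are known for potassium uptake through inward rectifiers and for chloride channels that maintain fluid balance in white matter.

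The values are log2 expression values that the authors had normalized so that all libraries have nearly the same distribution, with medians of 10.57 in each. Myelin genes were high in all 3 groups: the median over 13 markers of myelinating oligodendrocytes lay between 17.94 and 18.00 in NDRG1-eGFP libraries, between 17.34 and 17.55 in PLP-GFP libraries and between 16.94 and 17.59 in PDGFRa-GFP libraries. The median over 11 measured progenitor markers lay between 7.20 and 7.77 in NDRG1-eGFP libraries, between 7.69 and 9.33 in PLP-GFP libraries and between 6.79 and 8.87 in PDGFRa-GFP libraries. The library medians of all 3 groups thus overlapped on the progenitor list, and the 3 groups are named by their reporter. Over the 11 markers the median log2 fold change was -0.31 for PLP-GFP over PDGFRa-GFP cells and -0.93 for NDRG1-eGFP over PDGFRa-GFP cells. In each, 1 marker was lower and 0 higher at a limma adjusted p under 0.05 (8.53% and 8.46%, then 10.4% and 10.7%, of all genes). For NDRG1-eGFP over PLP-GFP cells the median was -0.35, with 2 markers higher and 1 lower (26.1% and 22.2% of all genes). Neuronal markers were low throughout: the median over 10 measured markers lay between 4.91 and 6.76 in NDRG1-eGFP libraries, between 5.17 and 6.00 in PLP-GFP libraries and between 5.21 and 7.56 in PDGFRa-GFP libraries, and 0 of the 10 passed the test in any comparison (limma-trend with Benjamini-Hochberg adjustment over all genes). Astrocyte markers had library medians between 8.70 and 9.09 in NDRG1-eGFP cells, between 8.70 and 9.12 in PLP-GFP cells and between 9.23 and 10.13 in PDGFRa-GFP cells.

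A handful of channel genes made up most of the channel expression. Divided by transcript length, which allows levels to be compared between genes, Kcna1, a shaker-type voltage-gated potassium channel, held 22.5% of the summed linear value of the 61 subunits on average over the 9 libraries. Kcnk13, a two-pore domain potassium channel, held 14.9%, Kcna6, another shaker-type potassium channel, 14.0%, and Clcn4-2, an endosomal chloride-proton exchanger, 12.8%. With Clcn3 (8.80%), Clcn2 (5.66%), Clcn6 (2.63%) and Clcn7 (2.43%), the 8 highest genes held 83.6%. This order is over all 9 libraries and differed by group: Kcnk13, Kcna6 and Clcn4-2 held 18.7%, 8.61% and 15.4% in NDRG1-eGFP cells, 11.6%, 20.3% and 9.59% in PLP-GFP cells and 14.3%, 13.0% and 13.3% in PDGFRa-GFP cells. Clcn2 encodes a plasma membrane chloride channel whose loss leaves vacuoles in the white matter of mice, and Clcn7 the lysosomal exchanger. In each library between 46 and 49 of the 64 genes lay below the median of all genes.

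The make-up of the channel expression differed between the groups. Voltage-gated potassium pore subunits held 30.2% ± 2.32 (SD, n = 3) of the length-scaled value in NDRG1-eGFP cells, 45.5% ± 2.98 in PLP-GFP cells and 37.6% ± 3.44 in PDGFRa-GFP cells. Chloride channels and exchangers held 35.4% ± 0.486 in NDRG1-eGFP cells, 29.3% ± 1.70 in PLP-GFP cells and 33.3% ± 2.18 in PDGFRa-GFP cells. Two-pore potassium channels held 20.0% ± 1.52 in NDRG1-eGFP cells, 12.4% ± 1.68 in PLP-GFP cells and 15.2% ± 2.40 in PDGFRa-GFP cells. The potassium pore share was thus highest in PLP-GFP cells and lowest in NDRG1-eGFP cells, and the two-pore share had the opposite order. Most of the two-pore share was Kcnk13, at 18.7% in NDRG1-eGFP cells, 11.6% in PLP-GFP cells and 14.3% in PDGFRa-GFP cells. Division by a gene's length leaves the trend of the group differences on length, treated below, in these shares. The part of that trend in them was not tested. Kcna6 alone held 8.61% ± 1.38 in NDRG1-eGFP cells, 20.3% ± 4.15 in PLP-GFP cells and 13.0% ± 1.90 in PDGFRa-GFP cells. Each of the other 9 classes held under 5% in every library. These shares are descriptions with no test, and they take the values as logarithms to base 2. Within a library they add up to the whole, so a class can lose share without a fall in its own values. Every PLP-GFP value of Clcn3, Clcn5, Clcn6 and Clcn7 lay above the NDRG1-eGFP ones, although the chloride share was smaller for PLP-GFP. Clcn4-2 went the other way, and Clcn2 overlapped between these groups.

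**Figure D1:**
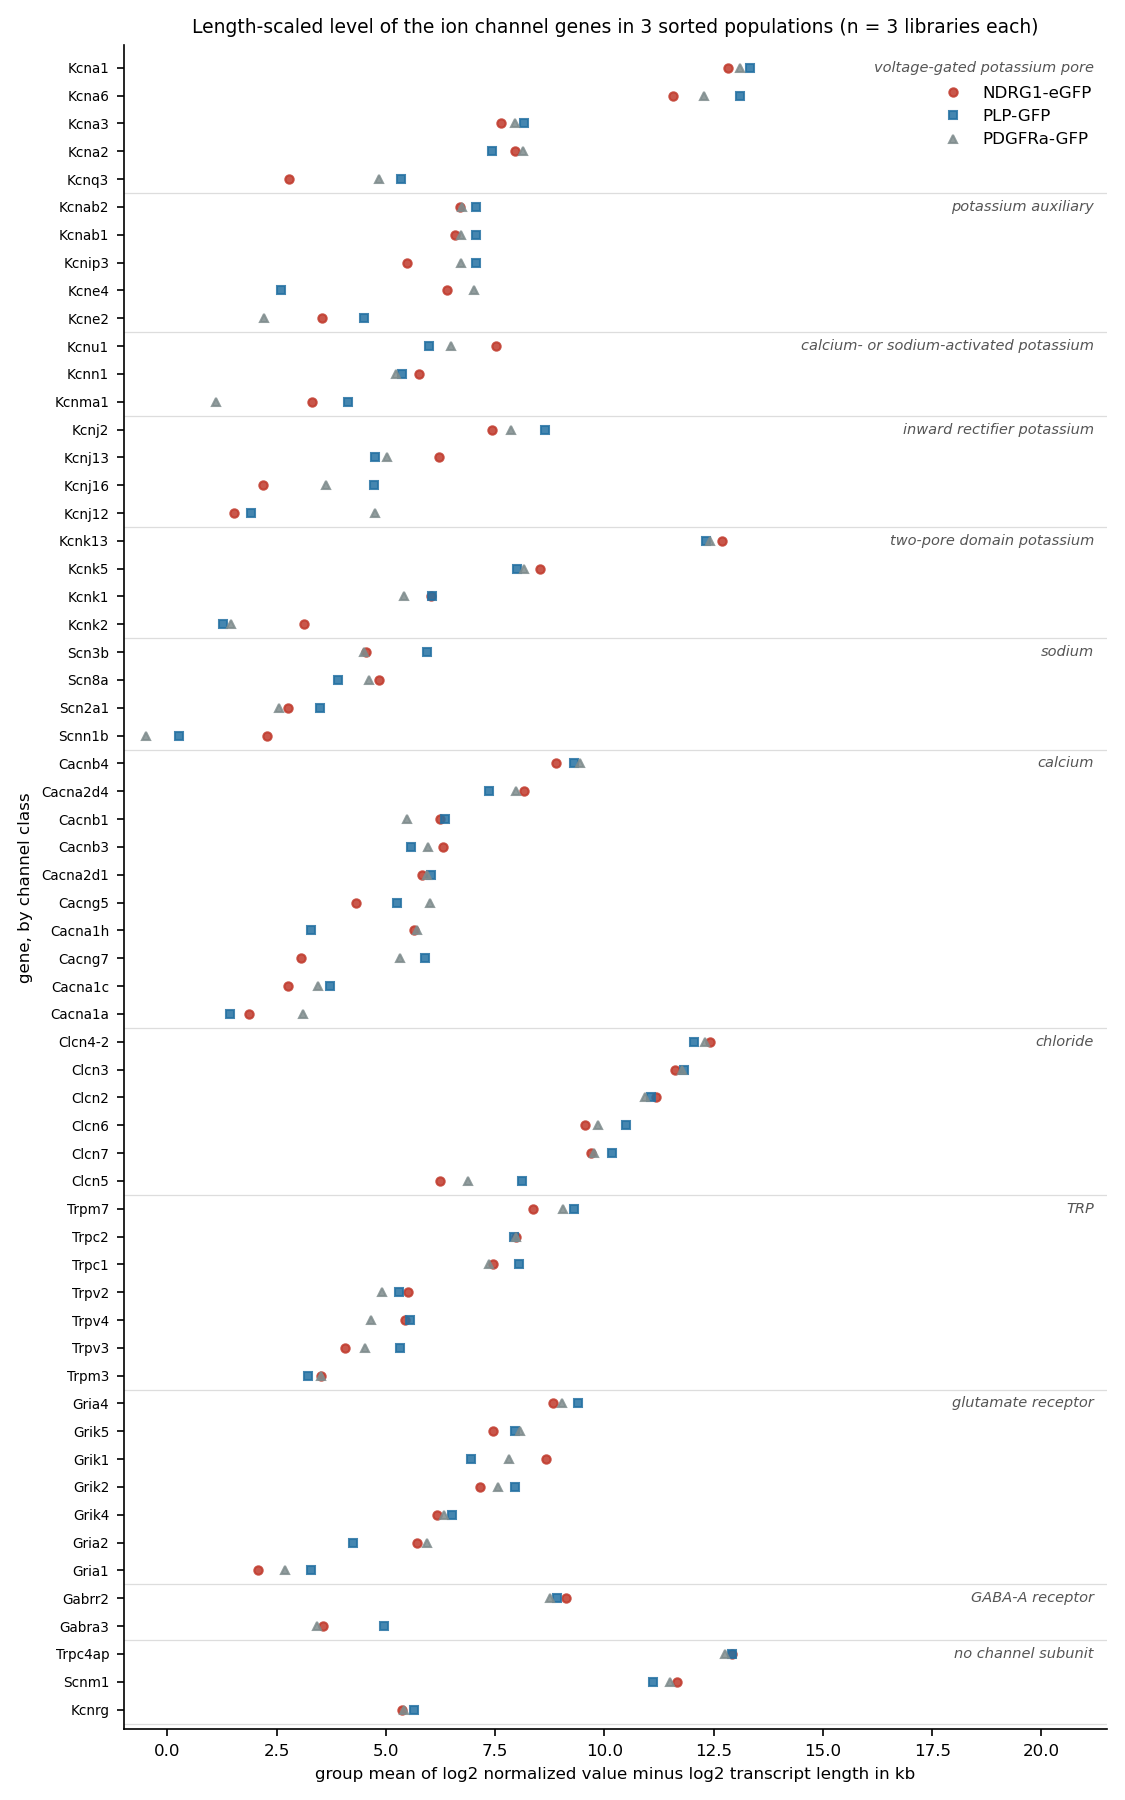
Each point is the mean of 3 libraries (log2 normalized value minus log2 transcript length in kb) for 1 of the 60 genes shown in NDRG1-eGFP (circles), PLP-GFP (squares) or PDGFRa-GFP cells (triangles), with genes grouped by channel class. Kcna1, Kcna6, Kcnk13 and the chloride genes Clcn4-2, Clcn3 and Clcn2 stand to the right, and most receptor, sodium and calcium channel genes lie well to their left.

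Between NDRG1-eGFP and PLP-GFP cells, 11 of the 64 genes were higher and 16 lower at a limma adjusted p under 0.05, the threshold for a call throughout. Over all 11315 genes, 26.1% were called higher and 22.2% lower, so neither count is large against the background. The median log2 fold change was -0.32 for the 64 genes and 0.08 for all genes. PLP-GFP had the highest of the 3 group means for 34 of the 64 genes (53.1%), against 37.0% of all genes. In 24 of the 64 (37.5%, against 23.1% of all genes) the mean was highest in PLP-GFP cells and lowest in NDRG1-eGFP cells. Both orders were taken on the values as deposited. Transcript length, treated below, was not taken into account, and its part in these shares was not tested. Fewer genes were called in the other comparisons: 4 were higher and 3 lower in PLP-GFP cells than in PDGFRa-GFP cells (8.46% and 8.53% of all genes), and 1 was higher and 6 lower in NDRG1-eGFP cells than in PDGFRa-GFP cells (10.7% and 10.4% of all genes). The comparisons share libraries, so their calls are not independent of each other. In sorted bulk samples, fewer cells of a type that carries a channel and less of its RNA per cell cannot be told apart.

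**Figure D2:**
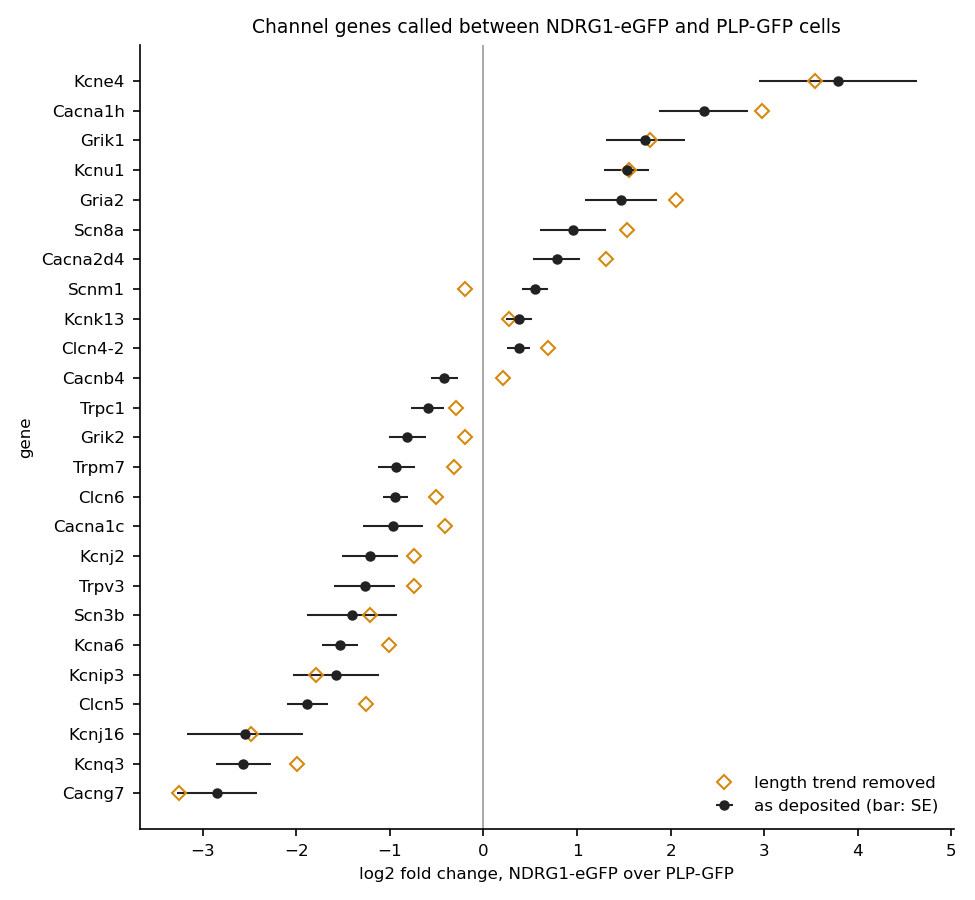
Points are log2 fold changes of NDRG1-eGFP over PLP-GFP cells (n = 3 libraries each) with bars of 1 standard error, for 25 of the 27 called genes. Open diamonds show the same fold change after removal of the trend on transcript length: Cacnb4 and Scnm1 change sign, and Kcne4, Cacna1h, Cacng7 and Kcnq3 remain far from 0.

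Transcript length moved with the group differences. Genes with transcripts under 2 kb had a median log2 fold change of 0.70 between NDRG1-eGFP and PLP-GFP cells, those of 2 to 4 kb 0.20, those of 4 to 8 kb -0.42 and those over 8 kb -0.59. For PLP-GFP over PDGFRa-GFP cells the medians in the same order of length were -0.39, 0.03, 0.33 and 0.21. Channel transcripts are long, with a median of 4039 bases against 3242 bases over all genes. With each library's trend on length removed, 10 of the 64 were called higher and 8 called lower in NDRG1-eGFP cells than in PLP-GFP cells (14.0% and 16.4% of all genes), of which 9 and 7 were called the same way with the values as deposited. The larger number of lower than of higher calls was thus not kept. For PLP-GFP against PDGFRa-GFP cells 1 was then higher and 5 lower (2.94% and 4.89% of all genes), and for NDRG1-eGFP against PDGFRa-GFP cells 1 was higher and 5 lower (4.39% and 9.97%). For the named genes among the 64, calls that ended with the length trend removed are stated beside them.

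**Figure D3:**
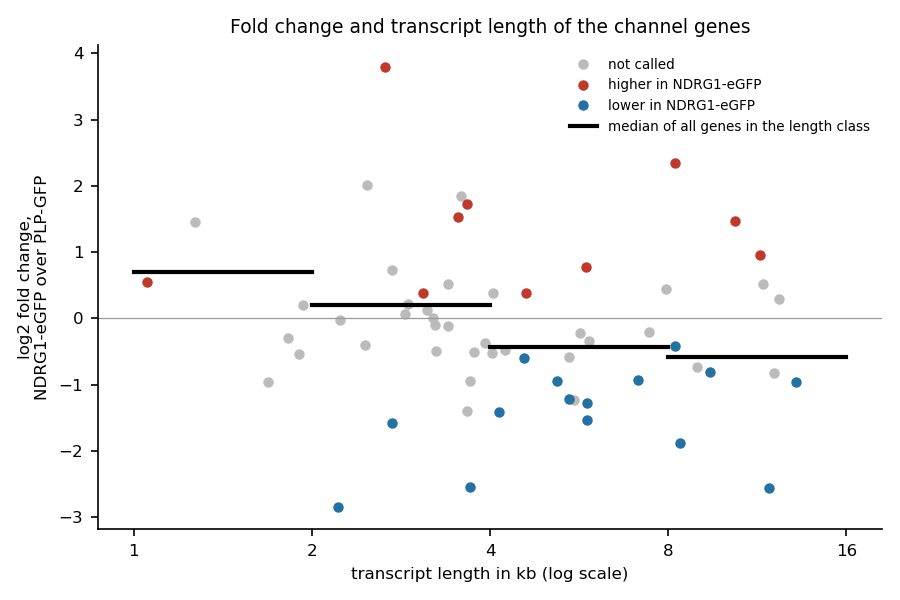
Each point is 1 gene (60 of the 64 are shown), with its transcript length on a log axis and its log2 fold change of NDRG1-eGFP over PLP-GFP cells. Black lines give the median of all genes in 4 length classes, which goes down with length from 0.70 to -0.59, and called genes lie on both sides of 0 in every class over 2 kb.

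In PLP-GFP cells 7 genes were called against both other groups. Clcn5, Clcn6, Kcna6 and Trpc1 were highest there (6.25% of the 64, against 6.63% of all genes), and Kcne4, Cacna1h and Gria2 lowest (4.69% of the 64, against 6.81% of all genes). Neither share was above the background. Further genes were highest in all 3 PLP-GFP libraries but not called against both groups, among them Kcnj16, Kcnj2, Trpv3, Scn3b, Kcnq3 and Cacng7. Clcn5 (chrX:7153810-7319358, minus strand, GRCm38) encodes an endosomal chloride-proton exchanger. It had values of 8.97, 9.36 and 9.59 in NDRG1-eGFP libraries, 10.98, 11.36 and 11.22 in PLP-GFP libraries and 10.02, 9.57 and 10.22 in PDGFRa-GFP libraries. All 3 PLP-GFP libraries lay above the other 6, with log2 fold changes of -1.88 ± 0.22 (SE) for NDRG1-eGFP over PLP-GFP (limma adjusted p = 0.000141) and 1.25 ± 0.22 for PLP-GFP over PDGFRa-GFP (limma adjusted p = 0.00874). The second call was lost without PLP-GFP replicate 2 (1.17, limma adjusted p = 0.0529).

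Clcn6 (chr4:148004259-148038821, minus strand), a late endosomal member of the same family, had values of 11.97, 11.83 and 12.01 in NDRG1-eGFP libraries, 12.72, 13.06 and 12.87 in PLP-GFP libraries and 12.20, 12.10 and 12.41 in PDGFRa-GFP libraries. The groups did not overlap, at -0.94 ± 0.13 for NDRG1-eGFP over PLP-GFP (limma adjusted p = 0.000443) and 0.64 ± 0.13 for PLP-GFP over PDGFRa-GFP (limma adjusted p = 0.0150). Kcna6 (chr6:126708329-126740674, minus strand) had values of 13.85, 14.05 and 14.44 in NDRG1-eGFP libraries, 15.33, 15.84 and 15.76 in PLP-GFP libraries and 15.03, 14.83 and 14.59 in PDGFRa-GFP libraries. Its 3 groups stood fully apart, at -1.53 ± 0.19 for NDRG1-eGFP over PLP-GFP (limma adjusted p = 0.000204), 0.83 ± 0.19 for PLP-GFP over PDGFRa-GFP (limma adjusted p = 0.0203) and -0.71 ± 0.19 for NDRG1-eGFP over PDGFRa-GFP (limma adjusted p = 0.0262). An antisense transcript, Gm26673, covers 39.6% of the exonic bases of Kcna6, and strand use in counting is not given in the sources used here, so reads of the pair cannot be told apart.

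Trpc1 (chr9:95705082-95750375, minus strand), a subunit of non-selective cation channels, had values of 9.47, 9.70 and 9.73 in NDRG1-eGFP libraries, 9.999, 10.34 and 10.34 in PLP-GFP libraries and 9.57, 9.73 and 9.35 in PDGFRa-GFP libraries. PLP-GFP libraries were above all others, at -0.59 ± 0.18 for NDRG1-eGFP over PLP-GFP (limma adjusted p = 0.0184) and 0.68 ± 0.18 for PLP-GFP over PDGFRa-GFP (limma adjusted p = 0.0294). Both Trpc1 calls ended with the length trend removed (-0.29 and 0.40), as did those of Clcn6 (0.32) and Kcna6 (0.47) for PLP-GFP over PDGFRa-GFP. In that comparison the calls of Clcn6, Kcna6 and Trpc1 were also lost without PLP-GFP replicate 2 (0.55, 0.73 and 0.62) and without PLP-GFP replicate 3 (0.65, 0.77 and 0.62), and those of Clcn6 and Kcna6 without PDGFRa-GFP replicate 2 (0.58 and 0.83). Trpc1 against NDRG1-eGFP was lost without NDRG1-eGFP replicate 1 (-0.51) or without PLP-GFP replicate 2 or 3 (-0.54 each), and Trpc1 for PLP-GFP over PDGFRa-GFP in a fit of these 2 groups alone (limma adjusted p = 0.0570). Kcna6 for NDRG1-eGFP over PDGFRa-GFP was lost without NDRG1-eGFP replicate 1 or 2 (-0.57 and -0.68) or PDGFRa-GFP replicate 1 or 2 (-0.60 and -0.70), and in a fit of these 2 groups alone (limma adjusted p = 0.0530).

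Kcne4 (chr1:78816758-78820028, plus strand), an auxiliary subunit that inhibits several voltage-gated potassium channels, had the lowest PLP-GFP values of the pattern. It had 9.17, 8.75 and 5.47 in NDRG1-eGFP libraries, 3.14, 4.69 and 4.20 in PLP-GFP libraries and 8.82, 8.23 and 8.25 in PDGFRa-GFP libraries. NDRG1-eGFP replicate 3 lay between the groups, and still above all PLP-GFP libraries. The log2 fold change was 3.79 ± 0.84 for NDRG1-eGFP over PLP-GFP (limma adjusted p = 0.00450) and -4.43 ± 0.84 for PLP-GFP over PDGFRa-GFP (limma adjusted p = 0.0107).

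Kcne4 moved with markers of fibroblast-like cells of the meninges and vessel walls. The median over 8 measured markers of 9 was between 7.39 and 9.76 in NDRG1-eGFP libraries, between 3.34 and 5.79 in PLP-GFP libraries and between 9.43 and 10.07 in PDGFRa-GFP libraries. The log2 of their summed linear values was between 11.42 and 13.28 in NDRG1-eGFP libraries, between 7.67 and 8.97 in PLP-GFP libraries and between 12.71 and 13.58 in PDGFRa-GFP libraries, and no value in the tables is 0. Of the 8, 7 were higher in NDRG1-eGFP cells than in PLP-GFP cells (26.1% of all genes). Also 7 were lower in PLP-GFP cells than in PDGFRa-GFP cells (8.53% of all genes). The NDRG1-eGFP library with the lowest Kcne4 value was also the lowest of its group on this list. Immediate early genes, which respond to tissue dissociation, had medians between 10.63 and 13.89 in NDRG1-eGFP libraries, between 9.24 and 9.48 in PLP-GFP libraries and between 9.29 and 13.41 in PDGFRa-GFP libraries. Microglial markers had medians between 8.43 and 9.33 in NDRG1-eGFP libraries, between 7.09 and 7.52 in PLP-GFP libraries and between 7.63 and 8.49 in PDGFRa-GFP libraries. Calls on these 2 lists went the same way: 7 of 10 immediate early genes and 7 of 9 microglial markers were higher in NDRG1-eGFP cells than in PLP-GFP cells. In PLP-GFP cells 3 and 2 of them were lower than in PDGFRa-GFP cells. The part of the fibroblast-like, immediate early and microglial lists in the channel results was not tested.

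Cacna1h (chr17:25374285-25433783, minus strand), the pore of a low-threshold T-type calcium channel, had values of 8.36, 8.81 and 8.85 in NDRG1-eGFP libraries, 7.39, 6.26 and 5.30 in PLP-GFP libraries and 8.97, 8.14 and 9.11 in PDGFRa-GFP libraries. All PLP-GFP libraries were below all others, at 2.35 ± 0.48 for NDRG1-eGFP over PLP-GFP (limma adjusted p = 0.00286) and -2.42 ± 0.48 for PLP-GFP over PDGFRa-GFP (limma adjusted p = 0.0122). The second call was lost without PLP-GFP replicate 2 (-2.39, limma adjusted p = 0.0592). Gria2 (chr3:80681450-80802835, minus strand), the AMPA receptor subunit that keeps calcium out of the channel, had values of 8.52, 9.12 and 9.64 in NDRG1-eGFP libraries, 7.72, 7.79 and 7.38 in PLP-GFP libraries and 9.29, 10.07 and 8.59 in PDGFRa-GFP libraries. It too was lowest in all 3 PLP-GFP libraries, at 1.47 ± 0.38 for NDRG1-eGFP over PLP-GFP (limma adjusted p = 0.00992) and -1.69 ± 0.38 for PLP-GFP over PDGFRa-GFP (limma adjusted p = 0.0195). The second Gria2 call was lost without PLP-GFP replicate 2 or 3 (-1.77 and -1.56) or PDGFRa-GFP replicate 2 (-1.31).

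**Figure D4:**
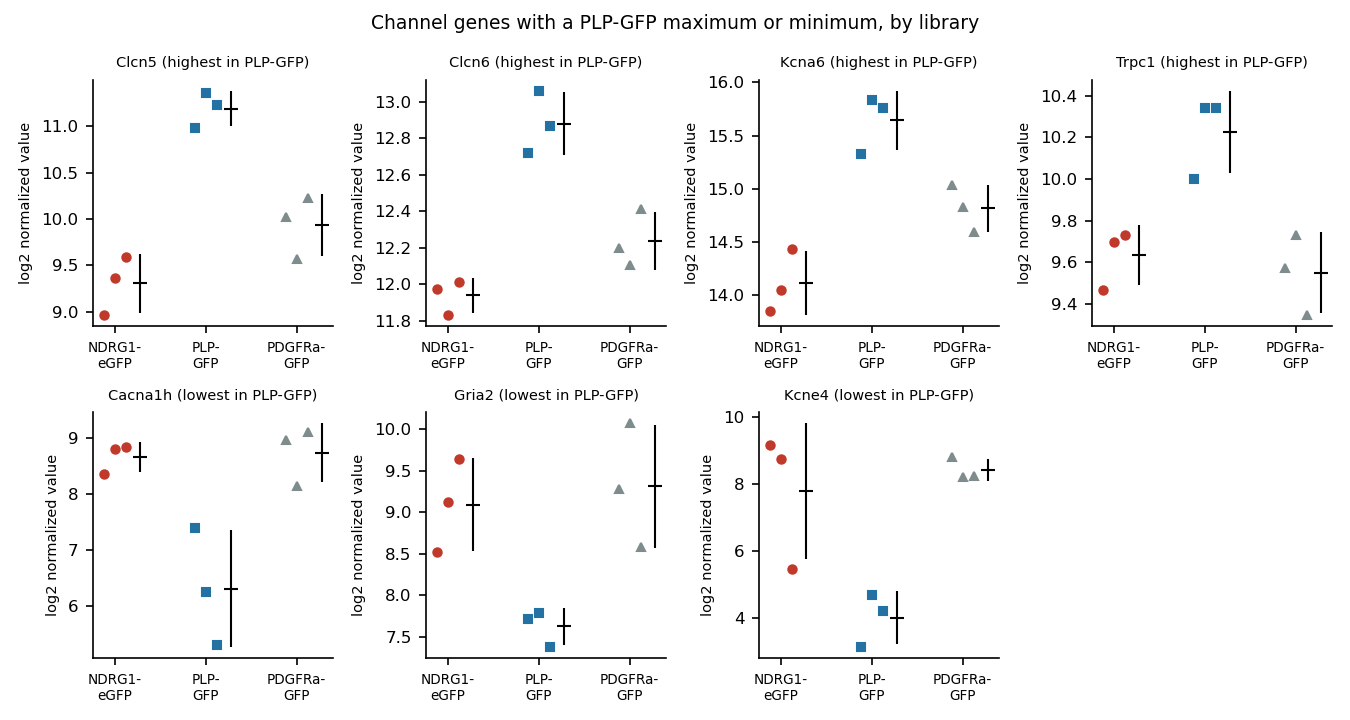
Each panel shows 1 gene, with a point for each library's log2 normalized value in NDRG1-eGFP, PLP-GFP and PDGFRa-GFP cells and a bar for the mean ± SD (n = 3); the vertical axes differ between panels and do not start at 0. Clcn5, Clcn6, Kcna6 and Trpc1 are highest in all 3 PLP-GFP libraries, and Cacna1h, Gria2 and Kcne4 are lowest in them.

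The promoters of these genes are shown because the genes shared an extreme in PLP-GFP cells. They are RefSeq windows of 300 bases on GRCm38.p6, from 250 bases before to 50 bases after the transcription start, given 5′ to 3′ on the strand of the gene, and 6 of the 7 genes had one, with Cacna1h named only. They lie at chrX:7319309-7319608 (minus, Clcn5, the outer of 2 listed windows), chr4:148038764-148039063 (minus, Clcn6), chr6:126740625-126740924 (minus, Kcna6), chr9:95750299-95750598 (minus, Trpc1), chr3:80802786-80803085 (minus, Gria2) and chr1:78816661-78816960 (plus, Kcne4). Capitals mark the GC box GGGCGG, searched on both strands, so that a match on the other strand reads CCGCCC.
Clcn5: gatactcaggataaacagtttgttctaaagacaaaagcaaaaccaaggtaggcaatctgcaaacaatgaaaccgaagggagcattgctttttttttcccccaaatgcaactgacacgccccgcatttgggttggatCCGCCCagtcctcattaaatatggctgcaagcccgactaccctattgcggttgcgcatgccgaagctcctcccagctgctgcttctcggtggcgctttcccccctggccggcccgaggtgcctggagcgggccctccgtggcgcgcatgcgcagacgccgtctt
Clcn6: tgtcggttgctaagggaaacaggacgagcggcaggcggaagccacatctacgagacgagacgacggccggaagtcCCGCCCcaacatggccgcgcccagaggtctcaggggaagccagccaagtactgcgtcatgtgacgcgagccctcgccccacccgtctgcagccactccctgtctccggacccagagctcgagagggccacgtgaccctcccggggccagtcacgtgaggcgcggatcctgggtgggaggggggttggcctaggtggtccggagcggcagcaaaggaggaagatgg
Kcna6: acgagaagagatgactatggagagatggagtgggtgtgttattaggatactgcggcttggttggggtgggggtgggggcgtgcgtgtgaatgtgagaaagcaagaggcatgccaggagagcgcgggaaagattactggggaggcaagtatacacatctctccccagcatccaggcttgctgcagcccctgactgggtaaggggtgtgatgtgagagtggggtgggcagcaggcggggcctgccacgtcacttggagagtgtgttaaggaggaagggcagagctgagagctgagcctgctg
Trpc1: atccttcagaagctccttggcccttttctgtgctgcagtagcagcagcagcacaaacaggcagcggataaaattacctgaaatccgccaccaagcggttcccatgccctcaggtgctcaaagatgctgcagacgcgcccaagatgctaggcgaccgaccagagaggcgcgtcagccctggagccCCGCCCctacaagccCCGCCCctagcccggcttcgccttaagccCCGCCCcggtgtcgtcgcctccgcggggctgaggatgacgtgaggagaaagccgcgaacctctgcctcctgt
Gria2: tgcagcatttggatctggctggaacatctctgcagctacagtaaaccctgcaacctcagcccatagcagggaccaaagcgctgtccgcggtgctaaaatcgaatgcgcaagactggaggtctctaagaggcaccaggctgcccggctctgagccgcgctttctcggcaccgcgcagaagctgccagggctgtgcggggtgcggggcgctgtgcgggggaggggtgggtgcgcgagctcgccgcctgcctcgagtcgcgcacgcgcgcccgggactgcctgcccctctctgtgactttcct
Kcne4: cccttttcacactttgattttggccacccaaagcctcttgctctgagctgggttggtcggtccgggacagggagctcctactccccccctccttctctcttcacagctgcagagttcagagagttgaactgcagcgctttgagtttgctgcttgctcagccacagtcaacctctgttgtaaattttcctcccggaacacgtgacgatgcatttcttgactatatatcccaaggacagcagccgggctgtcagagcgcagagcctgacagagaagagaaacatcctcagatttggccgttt

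The GC box occurred 1 time in the Clcn5 window, 1 time in Clcn6 and 3 times in Trpc1, and 0 times in Kcna6, Gria2 and Kcne4. Of 32544 RefSeq mouse promoter windows of this length, 35.9% hold it. Windows of genes highest in PLP-GFP cells thus differed among themselves, since Kcna6 had 0 matches. The letters AACAAT, the core read by SOX factors, were found 1 time in Clcn5 and in no other of the 6 windows (10.6% of all windows hold them), CANNTG, the E-box, was found in all 6 (72.3% of all windows), and TGANTCA (7.79%) and TATAAA (13.6%) in none. CANNTG can overlap the other motifs, and both strands were searched for each. The windows held 19 CpG dinucleotides in Clcn5, 26 in Clcn6, 8 in Kcna6, 22 in Trpc1, 26 in Gria2 and 9 in Kcne4, against a median of 7 over all windows. A match is a description of the letters only.

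Voltage-gated potassium pore subunits form channels that repolarize the membrane. Of 6, 0 were higher and 3 lower in NDRG1-eGFP cells than in PLP-GFP cells (26.1% and 22.2% of all genes). Kcna6 and Kcnq3 were among the lower ones. Kcnq3 (chr15:65986387-66286642, minus strand), a subunit of the slow M-current, had values of 5.82, 6.52 and 6.69 in NDRG1-eGFP libraries, 8.91, 9.12 and 8.70 in PLP-GFP libraries and 8.55, 8.09 and 8.56 in PDGFRa-GFP libraries. NDRG1-eGFP libraries were below all others, at -2.57 ± 0.30 against PLP-GFP (limma adjusted p = 0.000133) and -2.06 ± 0.30 against PDGFRa-GFP (limma adjusted p = 0.00107). No library left out ended either call, and both remained with the length trend removed (-1.99 and -1.63).

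The remaining shaker-type genes were abundant or moderate and were not called. Kcna1 (chr6:126640397-126646384, minus strand) had values of 14.71, 14.79 and 14.98 in NDRG1-eGFP libraries, 15.85, 15.09 and 15.10 in PLP-GFP libraries and 15.04, 15.34 and 14.95 in PDGFRa-GFP libraries. Its NDRG1-eGFP libraries lay below the PLP-GFP ones. Kcna2, which joins Kcna1 in axonal channels, had means of 11.48 ± 0.12 (SD, n = 3) in NDRG1-eGFP cells, 10.96 ± 0.36 in PLP-GFP cells and 11.67 ± 0.55 in PDGFRa-GFP cells. Kcna3, a shaker channel also found in microglia and lymphocytes, had means of 8.56 ± 0.30 in NDRG1-eGFP cells, 9.09 ± 0.10 in PLP-GFP cells and 8.88 ± 0.43 in PDGFRa-GFP cells. With the length trend removed, Kcna2 was called higher (1.10, limma adjusted p = 0.00979) and Kcna3 lower (-1.05, limma adjusted p = 0.00693) in NDRG1-eGFP cells than in PLP-GFP cells.

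Among 5 auxiliary potassium subunits, 1 was higher (Kcne4) and 1 lower in NDRG1-eGFP cells than in PLP-GFP cells (26.1% and 22.2% of all genes). Kcnip3, a calcium-binding partner of A-type channels, had values of 5.68, 7.31 and 7.82 in NDRG1-eGFP libraries, 8.29, 8.77 and 8.49 in PLP-GFP libraries and 8.27, 8.02 and 8.19 in PDGFRa-GFP libraries. It was lowest in NDRG1-eGFP libraries, at -1.57 ± 0.46 against PLP-GFP (limma adjusted p = 0.0177), and the call was lost without PLP-GFP replicate 2 (-1.45, limma adjusted p = 0.0668). Kcnab1 and Kcnab2, the cytoplasmic beta subunits of shaker channels, differed by at most 0.49 and 0.38 between group means and were not called. Kcne2, a partner of several potassium channels in epithelia, had 8.07, 3.40 and 1.42 in NDRG1-eGFP libraries, 5.67, 4.90 and 5.21 in PLP-GFP libraries and 1.80, 2.31 and 4.76 in PDGFRa-GFP libraries. The NDRG1-eGFP values spanned those of both other groups, and the PLP-GFP libraries lay above the PDGFRa-GFP ones without a call.

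Kcne2 and the inward rectifier Kcnj13, both known from choroid plexus epithelium, were high in 1 library of NDRG1-eGFP cells and low in its other 2. Kcnj13 had 9.54, 4.92 and 5.20 in NDRG1-eGFP libraries, 6.21, 3.61 and 5.48 in PLP-GFP libraries and 5.20, 4.79 and 6.10 in PDGFRa-GFP libraries. Both genes were highest in NDRG1-eGFP replicate 1. A list of 11 choroid plexus markers, added after these values were seen, had medians of 7.41, 3.70 and 1.15 in NDRG1-eGFP libraries, 6.33, 5.38 and 5.56 in PLP-GFP libraries and 3.12, 2.66 and 5.47 in PDGFRa-GFP libraries, and 7 of the 11 markers were highest in NDRG1-eGFP replicate 1. Neither channel gene was called in any comparison, and the part of choroid plexus cells was not tested. Exons of Gigyf2 on the other strand cover 49.1% of the exonic bases of Kcnj13.

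**Figure D5:**
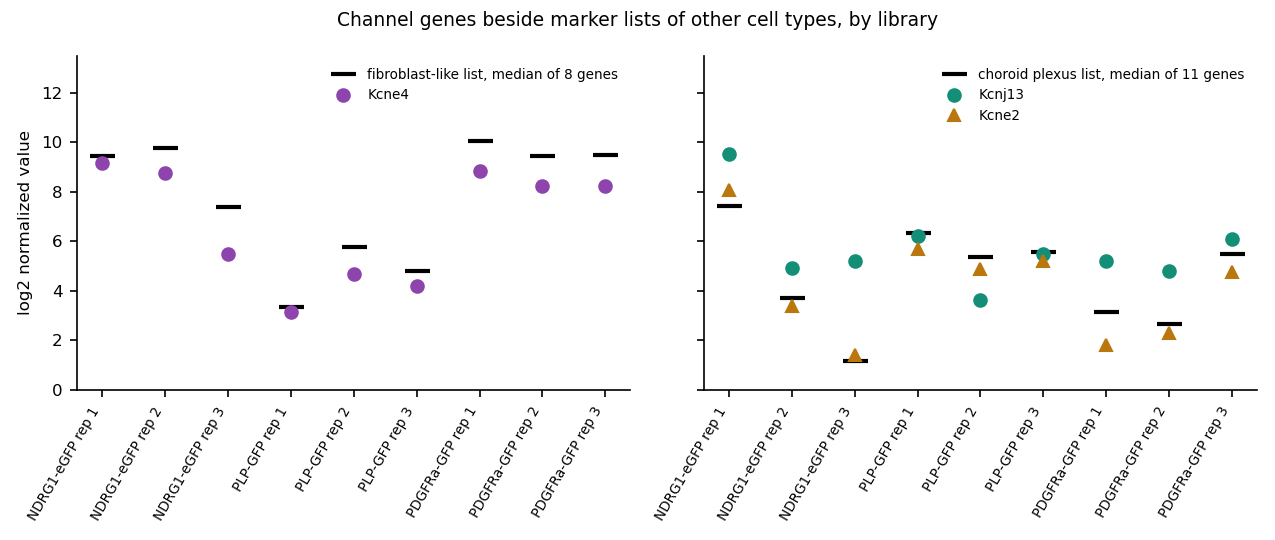
Log2 normalized values in each of the 9 libraries for Kcne4 beside the median of 8 fibroblast-like markers (left) and for Kcnj13 and Kcne2 beside the median of 11 choroid plexus markers (right). Kcne4 is low where the fibroblast-like median is low, in the PLP-GFP libraries and NDRG1-eGFP replicate 3, and Kcnj13 and Kcne2 peak with the choroid plexus median in NDRG1-eGFP replicate 1.

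The 4 inward rectifiers, which pass potassium into the cell, had 2 lower and 0 higher in NDRG1-eGFP cells than in PLP-GFP cells (22.2% and 26.1% of all genes). Kcnj16, which joins Kcnj10 in a channel of glia and kidney, had 4.86, 3.12 and 4.21 in NDRG1-eGFP libraries, 6.24, 6.28 and 7.31 in PLP-GFP libraries and 5.28, 5.59 and 5.65 in PDGFRa-GFP libraries. Its 3 groups did not overlap, with PLP-GFP highest, and it fell by 2.55 ± 0.62 in NDRG1-eGFP against PLP-GFP cells on the log2 scale (limma adjusted p = 0.00702). Kcnj2, a strong inward rectifier, had 9.61, 10.37 and 9.67 in NDRG1-eGFP libraries, 11.08, 11.10 and 11.11 in PLP-GFP libraries and 10.32, 9.67 and 10.94 in PDGFRa-GFP libraries. The PLP-GFP libraries were highest and nearly equal, at -1.21 ± 0.30 for NDRG1-eGFP over PLP-GFP (limma adjusted p = 0.00759), which was not called with the length trend removed (-0.74). Kcnj12, a relative of Kcnj2, had means of 2.81 ± 0.91 in NDRG1-eGFP cells, 3.21 ± 1.49 in PLP-GFP cells and 6.06 ± 1.41 in PDGFRa-GFP cells (SD, n = 3) and was not called.

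Kcnu1 stood out among the 3 channels gated by intracellular ions or pH. Kcnu1 (chr8:25849623-25937939, plus strand) encodes a Slo-family potassium channel known from sperm. It had 9.26, 9.31 and 9.42 in NDRG1-eGFP libraries, 7.91, 7.74 and 7.75 in PLP-GFP libraries and 7.96, 8.21 and 8.79 in PDGFRa-GFP libraries. NDRG1-eGFP libraries were above all others, at 1.53 ± 0.24 against PLP-GFP (limma adjusted p = 0.000725) and 1.01 ± 0.24 against PDGFRa-GFP (limma adjusted p = 0.0161). It was the 1 channel gene called higher in NDRG1-eGFP cells than in PDGFRa-GFP cells, and that call was lost without NDRG1-eGFP replicate 3 (0.97, limma adjusted p = 0.0508) or PDGFRa-GFP replicate 1 (0.83, limma adjusted p = 0.0543) and in a fit of these 2 groups alone (limma adjusted p = 0.0556). Kcnma1, the large-conductance calcium-activated channel, was not called, with means of 6.90 ± 0.37 in NDRG1-eGFP cells, 7.73 ± 1.74 in PLP-GFP cells and 4.71 ± 2.02 in PDGFRa-GFP cells (SD, n = 3). Kcnn1, a small-conductance channel, differed by at most 0.51 between group means and was not called.

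Two-pore domain channels carry background potassium leak. Of 4, 1 was higher and 0 lower in NDRG1-eGFP cells than in PLP-GFP cells (26.1% and 22.2% of all genes). The other comparisons had no call among them. Kcnk13 (chr12:99964499-100062682, plus strand) had 14.37, 14.25 and 14.33 in NDRG1-eGFP libraries, 13.75, 14.06 and 14.00 in PLP-GFP libraries and 13.99, 13.84 and 14.25 in PDGFRa-GFP libraries. NDRG1-eGFP libraries were above the PLP-GFP ones by 0.38 ± 0.13 (limma adjusted p = 0.0382), but the call was lost whichever of the 6 libraries of these groups was left out (0.29 to 0.44), with the libraries recentred by their median ratio (0.30) and with the length trend removed (0.27). Kcnk5 had means of 10.28 ± 0.48 in NDRG1-eGFP cells, 9.76 ± 0.21 in PLP-GFP cells and 9.93 ± 0.47 in PDGFRa-GFP cells (SD, n = 3) and Kcnk1 of 7.19 ± 0.999, 7.22 ± 0.20 and 6.57 ± 0.37 in the same order. Kcnk2 was low and scattered, from 0.32 in PLP-GFP replicate 2 to 7.03 in NDRG1-eGFP replicate 3.

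Of 5 sodium channel genes, 1 was higher and 1 lower in NDRG1-eGFP cells than in PLP-GFP cells (26.1% and 22.2% of all genes). Scn8a, the main pore of mature nodes of Ranvier in neurons, had 8.11, 8.39 and 8.59 in NDRG1-eGFP libraries, 7.69, 7.14 and 7.39 in PLP-GFP libraries and 8.30, 8.73 and 7.34 in PDGFRa-GFP libraries. It was higher in NDRG1-eGFP libraries than in PLP-GFP libraries by 0.96 ± 0.35 (limma adjusted p = 0.0457), and the call was lost whichever of the 6 libraries was left out (0.82 to 1.10) and with recentring by the median ratio (0.88). Scn8a was called with a larger difference once the trend on length was removed (1.54, limma adjusted p = 0.00476). Scn3b, an auxiliary beta subunit, had 6.70, 7.38 and 5.68 in NDRG1-eGFP libraries, 7.90, 7.76 and 8.31 in PLP-GFP libraries and 5.82, 6.72 and 7.09 in PDGFRa-GFP libraries. PLP-GFP libraries were highest, at -1.41 ± 0.48 for NDRG1-eGFP over PLP-GFP (limma adjusted p = 0.0341), and the call was lost with the length trend removed (-1.22) and without any 1 library of the 6 other than NDRG1-eGFP replicate 2 (-0.95 to -1.52). Scn2a1 and the epithelial subunit gene Scnn1b were not called, with means of 5.92 ± 0.55 and 3.58 ± 2.81 in NDRG1-eGFP cells, 6.65 ± 0.57 and 1.58 ± 0.06 in PLP-GFP cells and 5.72 ± 0.56 and 0.83 ± 0.84 in PDGFRa-GFP cells (SD, n = 3).

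The 10 calcium channel genes had 2 higher and 3 lower in NDRG1-eGFP cells than in PLP-GFP cells (26.1% and 22.2% of all genes). Cacng7 (chr7:3332955-3368221, plus strand), an auxiliary subunit of AMPA receptors related to calcium channel gamma subunits, had 4.32, 4.41 and 3.85 in NDRG1-eGFP libraries, 7.06, 7.18 and 6.88 in PLP-GFP libraries and 6.21, 6.77 and 6.43 in PDGFRa-GFP libraries. The 3 groups stood apart, with NDRG1-eGFP lowest, at -2.85 ± 0.43 against PLP-GFP (limma adjusted p = 0.000593) and -2.28 ± 0.43 against PDGFRa-GFP (limma adjusted p = 0.00542). The second call was lost in a fit of these 2 groups alone (limma adjusted p = 0.0534), and both were kept with the length trend removed (-3.25 and -2.55). Cacng5, a relative of Cacng7, had 5.07, 7.16 and 6.36 in NDRG1-eGFP libraries, 7.46, 7.09 and 6.87 in PLP-GFP libraries and 7.36, 7.81 and 8.54 in PDGFRa-GFP libraries. It was called for NDRG1-eGFP over PDGFRa-GFP, at -1.70 ± 0.52 (limma adjusted p = 0.0418), and lost without any 1 library of the 6 other than NDRG1-eGFP replicate 2 (-1.14 to -1.98) and in a fit of these 2 groups alone (limma adjusted p = 0.102).

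Cacna1c, the pore of an L-type calcium channel, had 6.52, 6.16 and 6.72 in NDRG1-eGFP libraries, 7.41, 7.76 and 7.12 in PLP-GFP libraries and 7.04, 7.09 and 7.33 in PDGFRa-GFP libraries. NDRG1-eGFP libraries were lowest, at -0.96 ± 0.32 against PLP-GFP (limma adjusted p = 0.0301), a call lost with the length trend removed (-0.41) and without NDRG1-eGFP replicate 1 or 2 (-0.99 and -0.81) or PLP-GFP replicate 1 or 2 (-0.97 and -0.80). Cacna2d4, an extracellular alpha2delta subunit, had 10.19, 11.04 and 10.82 in NDRG1-eGFP libraries, 9.60, 9.83 and 10.27 in PLP-GFP libraries and 10.47, 10.76 and 10.29 in PDGFRa-GFP libraries. The NDRG1-eGFP and PLP-GFP libraries overlapped, at 0.78 ± 0.25 (limma adjusted p = 0.0246), and the call was lost without NDRG1-eGFP replicate 2 or 3 (0.61 and 0.71) or PLP-GFP replicate 1 or 2 (0.63 and 0.75). With the length trend removed it was called also for PLP-GFP over PDGFRa-GFP (-0.96, limma adjusted p = 0.0312).

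Cacnb4, a cytoplasmic beta subunit and the most abundant calcium channel gene per length, had 11.79, 11.98 and 12.02 in NDRG1-eGFP libraries, 12.27, 12.35 and 12.44 in PLP-GFP libraries and 12.41, 12.76 and 12.30 in PDGFRa-GFP libraries. NDRG1-eGFP libraries were below all others, at -0.42 ± 0.14 against PLP-GFP (limma adjusted p = 0.0335) and -0.56 ± 0.14 against PDGFRa-GFP (limma adjusted p = 0.0218). With the length trend removed the first changed sign (0.20) and the second was not called (-0.25). The first call was lost without any 1 library of the 6 other than NDRG1-eGFP replicate 3 (-0.35 to -0.46), and the second without NDRG1-eGFP replicate 1 or 2 (-0.49 and -0.58) or PDGFRa-GFP replicate 2 (-0.42), and in a fit of these 2 groups alone (limma adjusted p = 0.0734). Cacnb1, Cacnb3, Cacna2d1 and Cacna1a, the P/Q-type pore, were not called. Of these Cacna1a had means of 4.86 ± 1.5 in NDRG1-eGFP cells, 4.42 ± 1.11 in PLP-GFP cells and 6.09 ± 0.38 in PDGFRa-GFP cells, and Cacna2d1, the target of gabapentin, had 8.73 ± 0.30, 8.93 ± 0.24 and 8.84 ± 0.25 in the same order (SD, n = 3).

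Among the 6 chloride genes, Clcn5 and Clcn6 fell and Clcn4-2 rose in NDRG1-eGFP against PLP-GFP cells. Clcn4-2 (chr7:7282309-7300851, minus strand) had 14.66, 14.61 and 14.59 in NDRG1-eGFP libraries, 14.17, 14.29 and 14.27 in PLP-GFP libraries and 14.39, 14.39 and 14.74 in PDGFRa-GFP libraries. NDRG1-eGFP libraries were above the PLP-GFP ones by 0.38 ± 0.12 (limma adjusted p = 0.0255), which was lost with recentring by the median ratio (0.30) and without any 1 library of the 6 other than NDRG1-eGFP replicate 3 (0.34 to 0.40). With the length trend removed the difference was larger (0.69, limma adjusted p = 0.00304), and Clcn4-2 was called lower in PLP-GFP cells than in PDGFRa-GFP cells (-0.54, limma adjusted p = 0.0330). The endosomal exchangers thus did not move together. Clcn3, a further endosomal exchanger, had means of 14.11 ± 0.10 in NDRG1-eGFP cells, 14.33 ± 0.04 in PLP-GFP cells and 14.28 ± 0.33 in PDGFRa-GFP cells, Clcn2 of 12.83 ± 0.26, 12.70 ± 0.19 and 12.58 ± 0.80, and Clcn7 of 11.78 ± 0.19, 12.25 ± 0.15 and 11.84 ± 0.42 (SD, n = 3). None of the 3 was called in any comparison, and the PDGFRa-GFP spread of Clcn2 came from replicate 3, at 11.66 against 13.01 and 13.07.

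TRP channels are cation channels gated by temperature, lipids, stretch or stores, and 3 of 7 were lower and 0 higher in NDRG1-eGFP cells than in PLP-GFP cells (22.2% and 26.1% of all genes). Besides Trpc1, these were Trpm7 and Trpv3. Once the length trend was removed, 0 of the 7 were lower and 0 higher (16.4% and 14.0% of all genes). Trpm7, a magnesium-permeable channel fused to a kinase, had 10.95, 11.12 and 11.51 in NDRG1-eGFP libraries, 12.06, 12.20 and 12.11 in PLP-GFP libraries and 11.91, 12.25 and 11.50 in PDGFRa-GFP libraries. NDRG1-eGFP libraries were below the PLP-GFP ones, at -0.93 ± 0.20 (limma adjusted p = 0.00386), and overlapped with the PDGFRa-GFP ones, at -0.69 ± 0.20 (limma adjusted p = 0.0344). Both calls ended with the length trend removed (-0.32 and -0.44), and the second also without NDRG1-eGFP replicate 1 or 2 (-0.57 and -0.66), without PDGFRa-GFP replicate 1 or 2 (-0.68 and -0.51) and in a fit of those 2 groups alone (limma adjusted p = 0.0953).

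Trpv3, a warm-sensitive channel known from skin, had 6.54, 6.54 and 6.72 in NDRG1-eGFP libraries, 7.94, 7.81 and 7.87 in PLP-GFP libraries and 6.86, 7.67 and 6.68 in PDGFRa-GFP libraries. PLP-GFP libraries were highest, at -1.27 ± 0.33 for NDRG1-eGFP over PLP-GFP (limma adjusted p = 0.00905), and the call ended with the length trend removed (-0.75). Trpm3, Trpv2, Trpv4 and Trpc2 were not called in any comparison, with group means between 6.34 and 9.51. Trpc2 values cannot be told from those of Xntrpc, which shares 97.5% of its exonic bases on the same strand.

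Of 7 ionotropic glutamate receptor genes, 2 were higher (Gria2 and Grik1) and 1 lower (Grik2) in NDRG1-eGFP cells than in PLP-GFP cells (26.1% and 22.2% of all genes). Grik1, a kainate receptor subunit, had 10.52, 10.09 and 11.01 in NDRG1-eGFP libraries, 8.18, 9.01 and 9.23 in PLP-GFP libraries and 9.87, 10.41 and 8.74 in PDGFRa-GFP libraries. NDRG1-eGFP libraries were above all PLP-GFP libraries by 1.73 ± 0.42 (limma adjusted p = 0.00712), also with the length trend removed (1.78). Grik2, a kainate subunit of the same low-affinity group, had 10.20, 10.48 and 10.47 in NDRG1-eGFP libraries, 11.20, 11.39 and 11.003 in PLP-GFP libraries and 10.94, 11.09 and 10.40 in PDGFRa-GFP libraries. It was lower in NDRG1-eGFP libraries than in PLP-GFP libraries, at -0.81 ± 0.20 (limma adjusted p = 0.00678), and the call ended with the length trend removed (-0.20).

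Gria4, the AMPA subunit with the highest level per length of the glutamate receptor genes, was not called, with means of 11.27 ± 0.14 in NDRG1-eGFP cells, 11.85 ± 0.10 in PLP-GFP cells and 11.47 ± 0.60 in PDGFRa-GFP cells (SD, n = 3). Grik4 and Grik5, the high-affinity kainate subunits, and Gria1 were not called either; with the length trend removed Grik5 was lower in NDRG1-eGFP cells than in PDGFRa-GFP cells (-0.71, limma adjusted p = 0.0384). Gria1 was low, from 1.98 in NDRG1-eGFP replicate 1 to 6.14 in PDGFRa-GFP replicate 2. The 3 GABA-A receptor genes were not called in any comparison. Gabrr2, a rho subunit known from retina, was the highest of them, with means of 10.07 ± 0.25 in NDRG1-eGFP cells, 9.87 ± 1.05 in PLP-GFP cells and 9.71 ± 0.29 in PDGFRa-GFP cells. Gabra3 had 5.43 ± 0.82 in NDRG1-eGFP cells, 6.83 ± 0.74 in PLP-GFP cells and 5.30 ± 0.85 in PDGFRa-GFP cells (SD, n = 3).

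The 3 matching genes that encode no channel subunit were described apart. Scnm1, a splicing factor, had 11.85, 11.78 and 11.56 in NDRG1-eGFP libraries, 11.35, 11.05 and 11.15 in PLP-GFP libraries and 11.44, 11.69 and 11.58 in PDGFRa-GFP libraries. It was higher in NDRG1-eGFP libraries than in PLP-GFP libraries by 0.55 ± 0.14 (limma adjusted p = 0.00905), and with the length trend removed the sign turned (-0.19). Kcnrg and Trpc4ap were not called, and Trpc4ap varied by 0.16 between group means.

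The spread between libraries depended on the level. The median pooled SD within groups was 1.29 for the 13 members with a mean under 6, 0.47 for the 33 with a mean of 6 to 10 and 0.27 for the 18 at 10 or more. Differences of about 1 on the log2 scale could thus exceed the spread in abundant genes such as Clcn6 (0.14) and Kcna6 (0.27) but not in Kcnma1 (1.55), Kcnk2 (1.80) or Kcne2 (2.19).

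Listed channel families outside these symbols were called at shares near the background between NDRG1-eGFP and PLP-GFP cells. The list also holds the GABA-B receptor genes Gabbr1 and Gabbr2 and the calcium sensor genes Stim1 and Stim2, which encode no channel pore. Single genes of this list and of the partners below are given on the values as deposited only. Whether their calls hold with the length trend removed or a library left out is not given. Of 81 listed genes 50 were measured, and 10 were higher and 13 lower in NDRG1-eGFP cells than in PLP-GFP cells (26.1% and 22.2% of all genes), with 8 and 7 once the length trend was removed (14.0% and 16.4% of all genes). Clic1, an intracellular chloride channel protein, had means of 8.56 ± 0.30 in NDRG1-eGFP cells and 5.84 ± 0.18 in PLP-GFP cells (SD, n = 3; 2.73 ± 0.30 SE, limma adjusted p = 0.000109). Itpr1, the calcium release channel of the endoplasmic reticulum, had 7.63 ± 0.60 in NDRG1-eGFP cells and 9.48 ± 0.48 in PLP-GFP cells (-1.86 ± 0.42, limma adjusted p = 0.00479). Glrb, the glycine receptor beta subunit, had 14.30 ± 0.10 in NDRG1-eGFP cells and 15.03 ± 0.16 in PLP-GFP cells (-0.73 ± 0.14, limma adjusted p = 0.00192). In PLP-GFP against PDGFRa-GFP cells 1 was higher (Clic5, by 3.52 ± 0.57) and 3 lower (Ano6, Clic1 and Gabbr1), against 8.46% and 8.53% of all genes. In NDRG1-eGFP against PDGFRa-GFP cells 6 were higher and 6 lower (10.7% and 10.4% of all genes).

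Partners and scaffolds of channels had 6 higher and 12 lower of 35 measured (53 listed) in NDRG1-eGFP cells than in PLP-GFP cells (26.1% and 22.2% of all genes), with 7 and 8 once the length trend was removed (14.0% and 16.4% of all genes). The scaffold gene Dlg2, which clusters shaker-type potassium channels, had means of 11.19 ± 0.32 in NDRG1-eGFP cells, 13.06 ± 0.08 in PLP-GFP cells and 11.70 ± 0.49 in PDGFRa-GFP cells (SD, n = 3). It was highest in PLP-GFP cells, at -1.87 ± 0.23 for NDRG1-eGFP over PLP-GFP (limma adjusted p = 0.000214) and 1.36 ± 0.23 for PLP-GFP over PDGFRa-GFP (limma adjusted p = 0.00833). Neto2, a kainate receptor auxiliary protein, had the same order of groups, with 8.02 ± 0.36 in NDRG1-eGFP cells, 9.43 ± 0.23 in PLP-GFP cells and 8.07 ± 0.14 in PDGFRa-GFP cells (-1.41 ± 0.24 and 1.36 ± 0.24). Atp1b1, the beta subunit of the sodium pump, was lowest in PLP-GFP cells, with 9.91 ± 0.63 in NDRG1-eGFP cells, 6.69 ± 0.51 in PLP-GFP cells and 9.44 ± 0.97 in PDGFRa-GFP cells (3.22 ± 0.48 and -2.75 ± 0.48). Cntn2, which anchors shaker-type channels beside the node of Ranvier, had 15.76 ± 0.20 in NDRG1-eGFP cells and 16.99 ± 0.19 in PLP-GFP cells (-1.23 ± 0.21, limma adjusted p = 0.00122).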

How the data were processed

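RNA was sequenced from 9 libraries of sorted mouse brain cells at postnatal day 60. BWA, DESeq2 1.2.5 and the mm10 build are listed, per the submitters' processing notes, with no role for each. Per the file headers, each deposited file holds a gene symbol and a normalized value, and the deposited values are taken as log2 values (the headers name no base). Their sorted values were nearly the same in all libraries, as after quantile normalization, so differences are relative to the other genes of a library. Tied values were shared by genes of different length, so the values are not per length. Raw counts were not analysed here, so depth is unknown and no counting interval can be given.

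Values were fitted with limma-trend (limma 3.58.1, R 4.3.3), in 1 joint fit of the 9 libraries with 1 term for each group. Genes needed 3 libraries with a value of 1 or more, which removed none. P-values were two-sided and adjusted by the Benjamini-Hochberg method over 11315 genes, with a call at an adjusted p under 0.05. With 3 libraries a group, an exact permutation test of 1 gene could not reach this threshold and was not used. Errors are standard errors of the fit for fold changes and SDs for means. Levels between genes were scaled by the longest protein-coding transcript in GENCODE M21 (GRCm38), found for 11272 genes and 64 of the 64 members. The share of 50-base windows found at other loci was over 5% for 1 member (Scn2a1, 5.76%), so its value is uncertain.

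Members named with values were those called with groups apart and a mean of at least 8 (up to 4 a class and the 8 highest and 8 lowest fold changes a comparison), the 2 most abundant a class, a list known from oligodendroglia, and any member in a count of 5 or fewer; further members were named after their values were seen. Results of some genes are not reported here, although counts and shares over the 64 include them. Of the list, Kcnj9, Cacng4, Gria3, Grik3, Grin1, Grin3a, Gabrb1 and Gabrg1 were not among the 11315 genes, and no Grin gene was. The shares of the channel expression do not cover such genes. The members and lists were chosen with earlier results of these data known. Alternatives were other recentrings, removal of each library's lowess trend on log length (span 0.3), other filters, the replicate number as a block, 5 added to the linear values, fits of 2 groups, robust empirical Bayes, stricter thresholds and leaving out each library. The fit was tested on simulated data.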

Additional observations from a re-analysis of the deposited data

How the results depend on the processing

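Counts of the 64 genes called depended on the setting. Calls over all genes were counted for the recentrings and the length trend only. Counts under the other settings are thus given without a background and cannot be set against one. For NDRG1-eGFP against PLP-GFP cells the 11 higher calls became 7 among genes with a mean of at least 8, 6 at an adjusted p under 0.01 and 6 with a log2 fold limit of 1 in either direction, and the 16 lower calls became 8 with the length trend removed, 8 among genes with a mean of at least 8, 10 at an adjusted p under 0.01 and 10 with that limit. For PLP-GFP against PDGFRa-GFP cells the 4 higher calls became 1 with the length trend removed, 1 at an adjusted p under 0.01 and 1 with that limit. The 3 lower calls became 5 with the length trend removed, 1 among genes with a mean of at least 8 and 0 at an adjusted p under 0.01. In this comparison 19 of the 64 genes, and 3981 of all 11315, had an unadjusted limma p under 0.05. For NDRG1-eGFP against PDGFRa-GFP cells the 1 higher call became 0 in a fit of only these groups and 0 at an adjusted p under 0.01. The 6 lower calls became 3 among genes with a mean of at least 8, 1 in a fit of only these groups, 2 at an adjusted p under 0.01 and 3 with that limit. Here 13 of the 64 genes, and 4106 of all 11315, had an unadjusted limma p under 0.05. Leaving out 1 library gave 6 to 9 higher and 11 to 16 lower calls for NDRG1-eGFP against PLP-GFP, 0 to 7 and 1 to 6 for PLP-GFP against PDGFRa-GFP, and 0 to 3 and 2 to 8 for NDRG1-eGFP against PDGFRa-GFP. Of these, the 6 came without PLP-GFP replicate 2, the 0 and the 1 of PLP-GFP against PDGFRa-GFP without PLP-GFP replicate 2, its 7 and 6 without PDGFRa-GFP replicate 3, and the 2 lower calls of NDRG1-eGFP against PDGFRa-GFP without NDRG1-eGFP replicate 1. Deviations from the group means correlated at -0.23 to 0.09 between same-numbered libraries. With 3 libraries a group this cannot exclude a shared day, litter or batch, and the labels do not say what the numbers mark. With the replicate block there were 7 higher calls for NDRG1-eGFP against PLP-GFP, 2 higher for PLP-GFP against PDGFRa-GFP and 2 lower for NDRG1-eGFP against PDGFRa-GFP. That setting kept 27 of the 41 calls of single genes. With the length trend removed 25 of the 41 were kept, 14 lost the call and 2 turned sign (Cacnb4, 0.20, and Scnm1, -0.19, both for NDRG1-eGFP over PLP-GFP). Recentring by the median ratio kept 38 of 41 and gave 8 higher and 18 lower calls in place of 11 and 16 for NDRG1-eGFP against PLP-GFP. Over all genes of that comparison it gave 2555 higher and 2789 lower calls in place of 2953 and 2507. Over all genes of NDRG1-eGFP against PDGFRa-GFP it gave 591 higher and 1362 lower calls in place of 1207 and 1176. No filter, the upper quartile, the added constant and robust empirical Bayes kept all 41. The cause of these changes was not tested, other than that fits with fewer libraries have less data. Raw counts were not analysed here, and low values limit Kcnk2, Kcnj12, Kcne2 and Scnn1b most.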
